A study of Mus musculus with 12 samples.

Results

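The BCL-2 family decides whether a cell's mitochondria release the proteins that start its death, and 10 of its genes were followed in 12 mouse RNA-seq libraries titled CD8 T cells. The genes were chosen by symbol, and all 10 were found among the 35855 annotated genes. They comprised 3 survival genes (Bcl2, Bcl2l1 and Mcl1), 2 effectors (Bax and Bak1) and 5 BH3-only genes (Bcl2l11, Bid, Bad, Bbc3 and Pmaip1). All 10 passed the filter on low counts in each comparison.

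The libraries came from 4 groups of 3, all titled CD8 T cells sorted from spleen and all of C57BL/6 background. WT donors were compared with TCF-1 cKO donors, labelled TCF-7 cKO, which carry floxed TCF-1 alleles and the CD4cre transgene. CD4cre acts in all T cells from the double-positive stage of the thymus, so the deletion is not specific to CD8 T cells. Pre-transplant cells were taken from the donors themselves. Post-transplant cells were H2Kb+ donor cells sorted back at day 7 from lethally irradiated BALB/c recipients that had received CD3 T cells of either genotype. By the study's methods the recipients were also given WT bone marrow depleted of T cells. For RNA-seq the methods add that donor CD8 T cells were sorted before transplant too. The pre-transplant libraries of each genotype came from 3 different mice, and the labels do not say whether post-transplant replicates were single recipients, so the p-values of the post-transplant groups measure only the spread between these samples. The labels state no ages, and by the study's methods the recipients were young adult or older females and donors were matched to them in age where possible.

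Survival proteins such as BCL-2, BCL-XL (the product of Bcl2l1) and MCL-1 hold the effectors BAX and BAK in check at the outer mitochondrial membrane. BH3-only proteins such as BIM (Bcl2l11), BID, BAD, PUMA (Bbc3) and NOXA (Pmaip1) carry stress and signalling inputs, bind the survival proteins and free or activate the effectors, which then open the membrane to cytochrome c. In T cells this balance is known to set how long naive and memory cells live and how an expanded response contracts, with BIM and BCL-2 as a well-known opposing pair. TCF-1, the product of Tcf7, is a transcription factor of naive and memory T cells that binds a short core motif shared with LEF-1.

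Promoter windows are shown for the genes on which the results turn. Bcl2 and Bax moved in opposite directions between stages, and Bak1 and Bcl2l11 were lower in post-transplant TCF-1 cKO cells. Each window runs from 250 bases before to 50 after an annotated RefSeq start on GRCm38.p6, written 5′ to 3′ on the strand of the gene, at chr1:106714241-106714540 (minus) for Bcl2, chr7:45466849-45467148 (minus) for Bax, chr17:27028578-27028877 (minus) for Bak1 and chr2:128125788-128126087 (plus) for Bcl2l11. Capitals mark the TCF/LEF core, searched as CTTTGA and its reverse complement TCAAAG.
Bcl2: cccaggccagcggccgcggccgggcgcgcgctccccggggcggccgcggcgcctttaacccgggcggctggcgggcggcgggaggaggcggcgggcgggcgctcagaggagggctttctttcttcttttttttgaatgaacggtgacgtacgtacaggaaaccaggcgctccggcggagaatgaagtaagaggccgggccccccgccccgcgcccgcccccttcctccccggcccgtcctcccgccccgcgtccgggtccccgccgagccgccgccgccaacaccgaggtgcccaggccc
Bax: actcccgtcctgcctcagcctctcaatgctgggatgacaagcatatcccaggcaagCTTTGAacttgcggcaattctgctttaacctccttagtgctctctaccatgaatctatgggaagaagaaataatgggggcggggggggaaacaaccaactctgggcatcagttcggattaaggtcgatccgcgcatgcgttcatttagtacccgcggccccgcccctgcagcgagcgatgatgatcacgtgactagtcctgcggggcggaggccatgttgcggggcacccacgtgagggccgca
Bak1: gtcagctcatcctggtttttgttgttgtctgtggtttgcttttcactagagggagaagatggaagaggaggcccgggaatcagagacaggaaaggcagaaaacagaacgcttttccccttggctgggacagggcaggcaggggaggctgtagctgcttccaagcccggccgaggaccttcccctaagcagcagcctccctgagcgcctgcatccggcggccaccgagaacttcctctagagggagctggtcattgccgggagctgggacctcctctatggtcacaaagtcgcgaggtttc
Bcl2l11: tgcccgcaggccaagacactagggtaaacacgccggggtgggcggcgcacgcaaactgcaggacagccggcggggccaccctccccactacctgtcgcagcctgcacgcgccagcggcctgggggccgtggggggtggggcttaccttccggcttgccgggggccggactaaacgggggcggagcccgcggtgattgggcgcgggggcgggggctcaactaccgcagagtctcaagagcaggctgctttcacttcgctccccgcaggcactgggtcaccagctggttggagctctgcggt

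The table of promoters held 15 windows for 9 of the members. The core lay in 1 of the 15, that of Bax, where it began at position -194 relative to the start. Over all 32851 windows of the same length, 16.0% held it. GC content of the printed windows was 76.0% for Bcl2, 57.3% for Bax, 58.3% for Bak1 and 71.0% for Bcl2l11, against a median of 52.7% over all windows. The window of Bcl2 held 44 CpG dinucleotides, that of Bcl2l11 held 27, that of Bax 19 and that of Bak1 11, beside a median of 7. A match is a string of letters and not a site, and no binding was measured here.

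Library totals lay between 4520270 and 9577076 estimated counts in the TCF-1 cKO pre-transplant group and between 18184814 and 32657005 in the other 3 groups. The libraries differed in their markers before any member was compared. CD8 T cell markers (6 genes) summed to between 631 and 1440 CPM of the library total in pre-transplant libraries and to between 3536 and 5459 CPM in post-transplant libraries. B cell markers (6 genes) summed to between 12127 and 22719 CPM pre-transplant and to between 324 and 507 CPM post-transplant. Erythroid markers (6 genes) were at 4459 to 26445 CPM against 205 to 1193 CPM, and myeloid markers (6 genes) at 1340 to 3415 CPM against 107 to 366 CPM. CD4 T cell markers (3 genes) were at 68.9 to 194 CPM against 2.23 to 24.3 CPM, and NK cell markers (3 genes) at 48.7 to 172 CPM against 17.7 to 47.6 CPM. The pre-transplant libraries therefore went against their label of sorted CD8 T cells, and are named by that label below. Their B cell signal exceeded their CD8 T cell signal in each library. In bulk libraries fewer cells of a type and less RNA per cell cannot be told apart. The part of these markers in the stage differences of the members was not tested.

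Tcf7, the targeted gene, was at 115 to 205 CPM in WT and at 56.8 to 97.1 CPM in TCF-1 cKO pre-transplant libraries. Post-transplant, the libraries labelled WT (6.89 to 17.2 CPM) and TCF-1 cKO (8.999 to 9.48 CPM) overlapped. The gene total includes exons outside any deleted part and so does not check the deletion. Replicate 2 of the TCF-1 cKO post-transplant group is named a CD4 T cell in 1 of its labels, but its Cd8a was at 432 CPM and its Cd4 at 1.42 CPM. TCF-1 cKO pre-transplant replicate 3 and WT post-transplant replicate 3 stood apart from their groups in several members, as described below.

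Bax was the most abundant member in each group, and its libraries did not overlap with those of the next member. On the TPM scale, which corrects for transcript length and so allows genes to be compared, Bax averaged 193 ± 32.4 TPM in WT pre-transplant, 167 ± 69.5 in TCF-1 cKO pre-transplant, 453 ± 53.5 in WT post-transplant and 311 ± 128 in TCF-1 cKO post-transplant cells (SD, n = 3). Before transplant, Bid came next in both genotypes (61.6 ± 6.34 and 36.1 ± 14.5 TPM) and was followed by Mcl1, Bcl2 and Bad, which overlapped between neighbours. At day 7 Bad was next, with 92.9 ± 31.5 TPM in WT and 37.6 ± 28.1 TPM in TCF-1 cKO cells, and overlapped with Bid in TCF-1 cKO but not with Bcl2l1 in WT cells. By group means Bcl2 dropped from rank 5 to rank 10 of 10 in WT cells and from rank 4 to rank 7 in TCF-1 cKO cells. At day 7 its libraries overlapped with those of the member ranked above it, Pmaip1 in WT and Bcl2l1 in TCF-1 cKO cells. Bak1 was the lowest member in 3 groups, at 0.740 ± 0.352, 1.48 ± 1.17 and 0.698 ± 0.124 TPM, where its libraries overlapped with those of Bbc3 in both TCF-1 cKO groups.

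**Figure D1:**
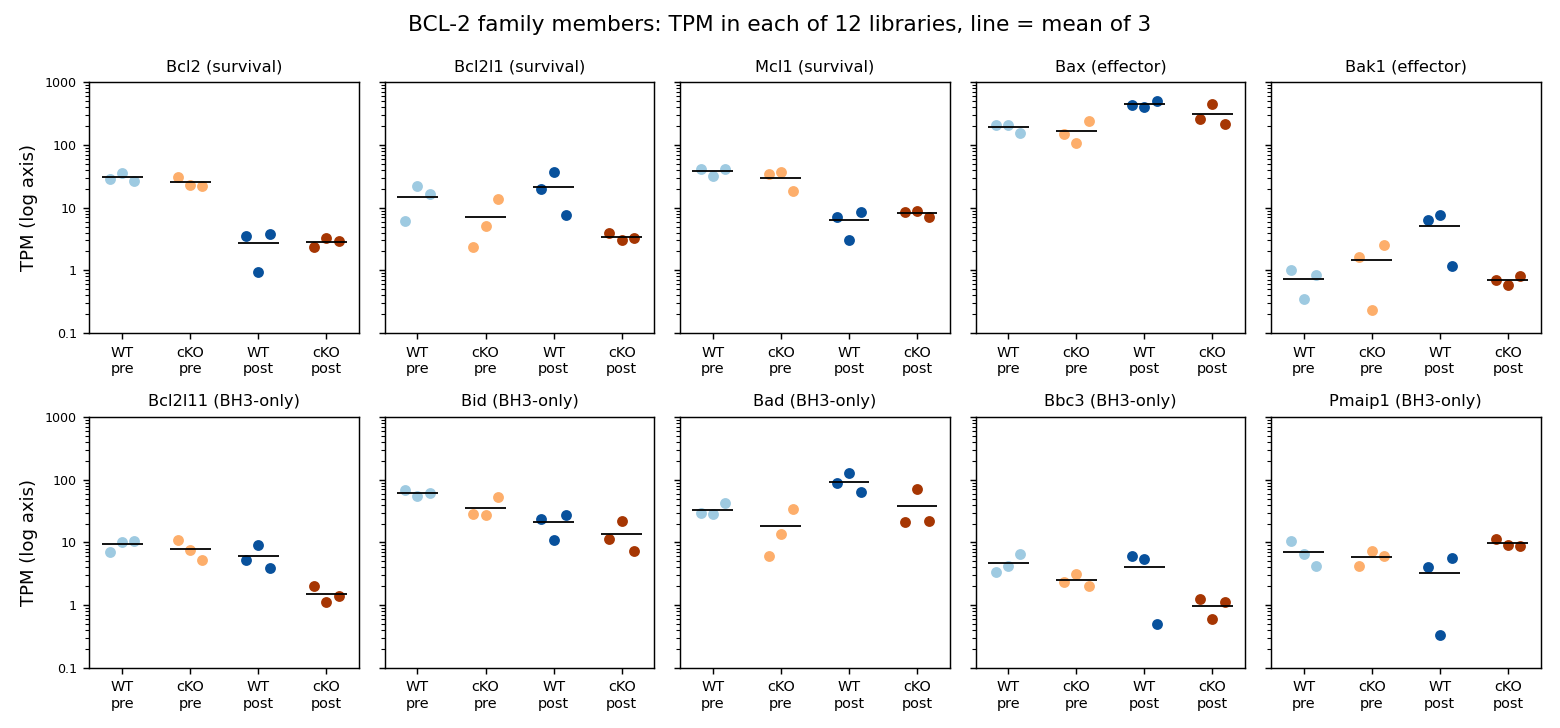
TPM (log axis, shared by all panels) of each member in the 12 libraries, with 3 points per group in the order of their replicate numbers and a line at the mean of 3. Bcl2 and Mcl1 sit lower in all post-transplant libraries than in any pre-transplant library, and Bax lies above 100 TPM in every library.

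Whether loss of TCF-1 changed these genes before and after alloactivation was asked in each stage by itself. Before transplant no member passed an FDR of 0.1 (edgeR quasi-likelihood test, Benjamini-Hochberg adjustment), where 0.0373% of the 18757 genes tested were called. Of the members 1 (Bid) had an unadjusted p below 0.05. The Wald test of DESeq2 also called 0 members, among 1433 of 18757 genes called. The members leaned lower in TCF-1 cKO cells, with 9 of 10 negative, as were 48.7% of all genes. Their median log2 fold change was -0.65 against 0.05 over all genes. In normalised CPM 5 of 10 members had no overlap between genotypes, as had 30.3% of all genes. Only Bid and Bbc3 had none on the TPM scale. Leaving out TCF-1 cKO replicate 3 changed this: Bcl2l1 (log2 fold change -2.57), Bax (-1.35), Bid (-1.58) and Bad (-2.36) were then called lower. Their edgeR adjusted p-values were 0.061, 0.059, 0.039 and 0.058, among 2739 of 21575 genes called. CD8 T cell markers were also lower in the TCF-1 cKO pre-transplant libraries (631 to 693 CPM) than in WT (1335 to 1440 CPM), and their part in these differences was not tested.

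At day 7 post-transplant 3 members were lower in TCF-1 cKO than in WT cells: the survival gene Bcl2l1, the effector Bak1 and the BH3-only gene Bcl2l11. None was higher. Against these 3 of 10 members, 17.9% of the 16026 genes tested were called. Of the members 8 of 10 were negative, as were 45.8% of all genes. The median log2 fold change of the members was -1.22 against 0.15 over all genes. In normalised CPM 4 of 10 had no overlap between genotypes, as had 40.8% of all genes. Leaving out any of TCF-1 cKO replicates 1, 2 or 3 or WT replicates 1 or 2 left 0 members called. At most 2 genes of the whole table were called in those fits. Leaving out WT replicate 3 gave 5 members (Bad and Bbc3 added), among 5299 of 18183 genes called. Summed CD8 T cell markers ranged from 3536 to 3780 CPM in the WT and from 4590 to 5459 CPM in the TCF-1 cKO libraries, and their part was not tested.

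Between stages, Bcl2 fell and Bax and Bad rose in both genotypes. In WT cells Bak1 also rose, and in TCF-1 cKO cells Pmaip1 rose, giving 4 of 10 members called in each genotype (3 higher and 1 lower). Among all genes 20.0% were called in WT and 36.5% in TCF-1 cKO cells. In normalised CPM the groups did not overlap for 6 of 10 members in WT cells, as for 32.2% of genes. In TCF-1 cKO cells they did not for 4 of 10, as for 46.9% of genes. These 4 were Bcl2, Bax, Bad and Pmaip1, of which Bax and Bad overlapped in TPM. These comparisons depend on scaling. The trimmed mean of M-values (TMM), used here, put the median of all genes at -0.30 in WT and -0.29 in TCF-1 cKO cells on the log2 scale, whereas library totals put it at -1.25 and -1.89. The directions of Bcl2, Bax and Bad were the same under both scalings and in TPM.

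**Figure D2:**
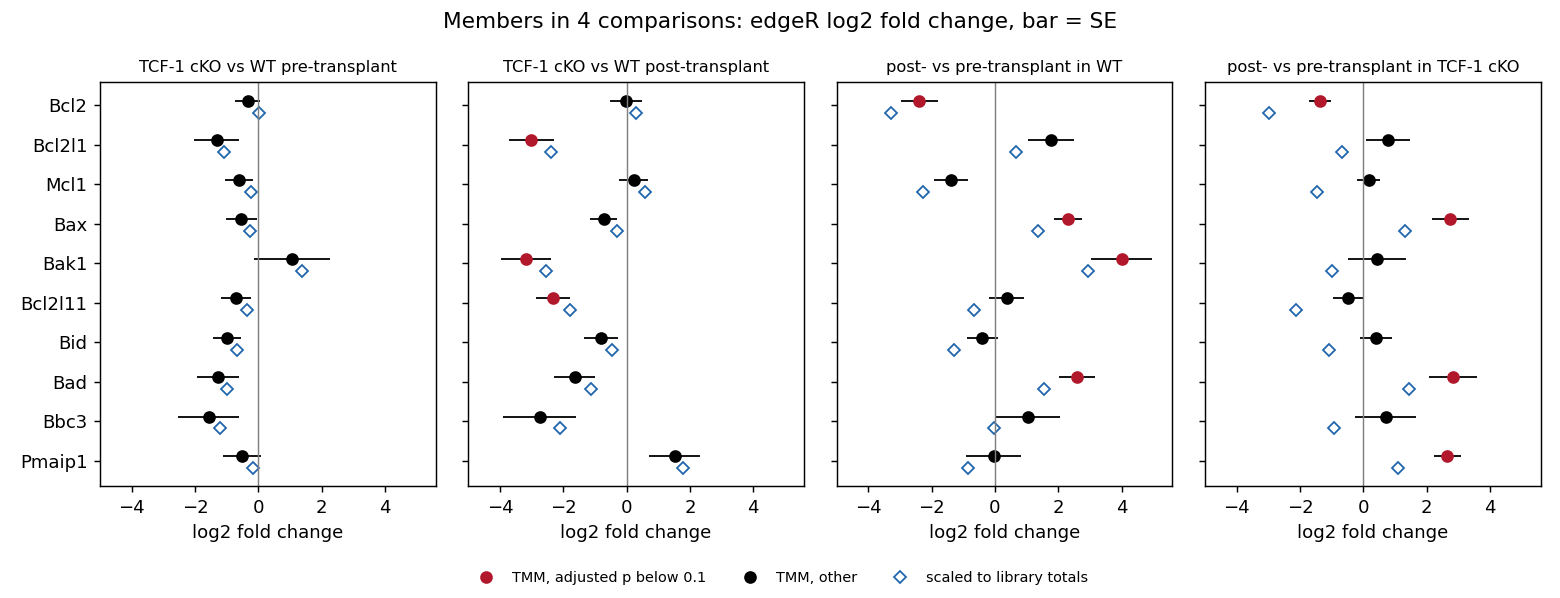
Log2 fold changes of the 10 members in the 4 comparisons, with filled points for TMM scaling (red where the edgeR adjusted p was below 0.1, bars are SE, 3 libraries a group) and open diamonds for scaling to library totals. Bcl2 lies left of 0 and Bax and Bad right of 0 in both stage panels under both scalings, while Bcl2l1, Mcl1, Bak1, Bid and Bbc3 change side in TCF-1 cKO and Bcl2l11 and Bbc3 in WT cells.

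An interaction term, fitted to the 12 libraries together, asked whether the genotype difference itself changed with stage. No member was called, and 0.00465% of the 21526 genes were. Bak1 (log2 difference -3.79, SE 1.30, edgeR adjusted p = 0.244) and Pmaip1 (2.44, SE 1.01, adjusted p = 0.282) had unadjusted p-values of 0.0100 and 0.0282. The Wald test of DESeq2 called 1 member, Bak1, with an adjusted p of 0.054, among 1371 of 21526 genes called. Without WT post-transplant replicate 3, edgeR called Bak1 and Pmaip1 (adjusted p-values of 0.073 and 0.089), among 2093 of 23972 genes called. The differences described for 1 stage are thus not shown to differ from those of the other.

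Bcl2 encodes the founding survival protein of the family, on which naive and memory T cells rely. Its level was 29.1, 35.9 and 26.7 TPM in the WT pre-transplant libraries and 31.4, 22.6 and 22.2 TPM in TCF-1 cKO. In post-transplant cells Bcl2 was at 3.51, 0.958 and 3.74 TPM in WT and 2.37, 3.33 and 2.93 TPM in TCF-1 cKO libraries. Every post-transplant library lay below every pre-transplant library, and the genotypes overlapped at both stages in TPM. In normalised CPM they did not overlap before transplant. On TMM-scaled counts Bcl2 fell by 2.39 (SE 0.58, edgeR adjusted p = 0.0219) in WT and by 1.38 (SE 0.35, adjusted p = 0.0164) in TCF-1 cKO cells on the log2 scale. Relative to the median of all genes these were -2.09 and -1.09. The WT call was lost, narrowly, without WT pre-transplant replicate 3 (log2 fold change -2.33, adjusted p = 0.101) or WT post-transplant replicate 1 (-2.28, adjusted p = 0.104). Between genotypes Bcl2 differed by -0.34 (SE 0.40) before and -0.03 (SE 0.51) after transplant on the log2 scale, neither past the threshold, and under library totals both were above 0 (0.02 and 0.30).

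Bcl2l1, whose main product BCL-XL protects activated lymphocytes, had the widest spread of the survival genes. It was at 6.22, 22.1 and 16.7 TPM in WT and 2.40, 5.03 and 13.9 TPM in TCF-1 cKO pre-transplant libraries. Post-transplant levels were 20.03, 36.5 and 7.61 TPM in WT and 3.98, 3.09 and 3.32 TPM in TCF-1 cKO libraries. Every WT library was above every TCF-1 cKO library at day 7, but WT replicate 3 was much nearer to them than replicates 1 and 2. The post-transplant log2 fold change was -3.02 (SE 0.71, edgeR adjusted p = 0.0448), an 8.09-fold lower level, with a range of -3.50 to -2.21 when 1 library was left out. Before transplant the difference was -1.32 (SE 0.71, adjusted p = 0.335). In WT cells its stage difference of 1.78 (SE 0.73, adjusted p = 0.139) missed the threshold and passed without WT post-transplant replicate 3 (2.42, adjusted p = 0.024). In TCF-1 cKO cells it was 0.77 under TMM and -0.66 under library totals, and it passed without TCF-1 cKO pre-transplant replicate 3 (2.17, adjusted p = 0.012).

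Mcl1 encodes a short-lived survival protein that T cells need at most stages. Its WT libraries were at 40.8, 32.5 and 41.0 TPM pre-transplant and at 7.20, 3.09 and 8.56 TPM post-transplant. The TCF-1 cKO libraries were at 34.1, 36.6 and 18.6 TPM pre-transplant and at 8.52, 9.01 and 7.09 TPM post-transplant. All post-transplant libraries were thus lower in TPM than all pre-transplant ones, but on TMM-scaled counts the stage difference was -1.39 (SE 0.54, edgeR adjusted p = 0.117) in WT and 0.17 (SE 0.35, adjusted p = 0.751) in TCF-1 cKO cells. Under library totals these were -2.27 and -1.48 with adjusted p-values of 0.019 and 0.011, so that the direction in TCF-1 cKO cells depended on the scaling. Genotypes differed by -0.61 before and 0.23 after transplant on the log2 scale, and neither passed the threshold.

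The make-up of the survival genes followed. Of their summed TPM, Bcl2l1 held 65.2%, 90.0% and 38.2% in the WT post-transplant libraries and 26.8%, 20.04% and 24.9% in the TCF-1 cKO post-transplant libraries. Mcl1 held 23.4%, 7.62% and 43.0% in WT against 57.3%, 58.4% and 53.1% in TCF-1 cKO libraries. Neither gene's shares overlapped between genotypes at day 7. Before transplant Bcl2 and Mcl1 together made up most of the sum in each library, with Bcl2 at 31.6% to 46.3% and Mcl1 at 34.0% to 57.0%, and the genotypes overlapped for all 3 genes.

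**Figure D3:**
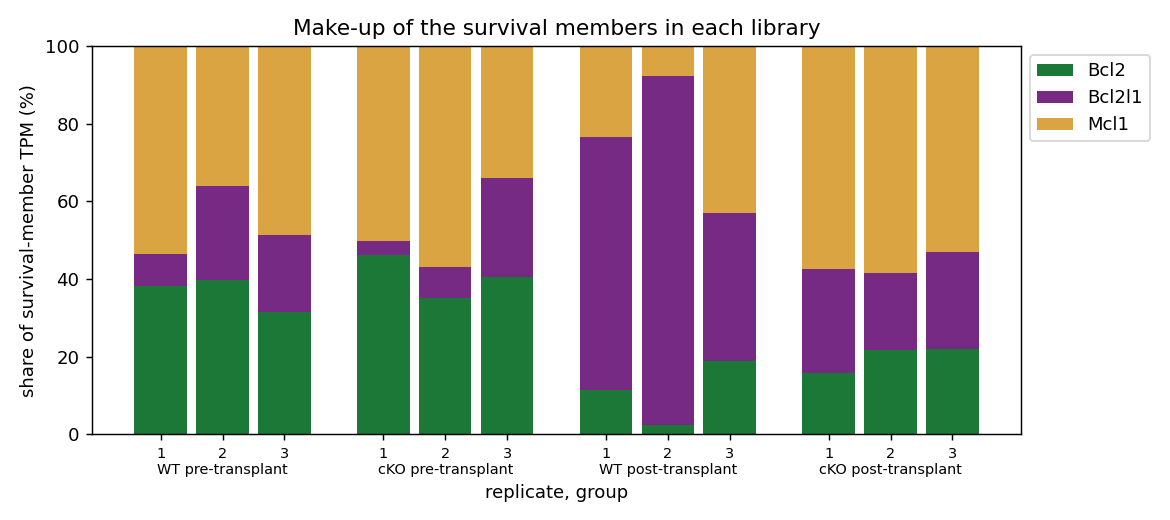
Share (%) of the summed TPM of Bcl2, Bcl2l1 and Mcl1 held by each of them, 1 bar per library with replicates 1 to 3 of each group side by side. Bcl2l1 takes the largest share in WT post-transplant replicates 1 and 2, and Mcl1 takes over 50% in all 3 TCF-1 cKO post-transplant libraries.

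Bax encodes an effector that moves from the cytosol to the mitochondrial membrane and forms pores there. Its TPM was 211, 212 and 156 in WT and 150, 107 and 243 in TCF-1 cKO pre-transplant libraries. The day 7 values were 437, 410 and 513 in WT and 256, 457 and 220 in TCF-1 cKO libraries. The WT stages did not overlap, while TCF-1 cKO pre-transplant replicate 3 lay above the lowest post-transplant library of its genotype. On TMM-scaled counts Bax rose by 2.32 (SE 0.44, edgeR adjusted p = 0.0079) in WT and by 2.76 (SE 0.57, adjusted p = 0.0064) in TCF-1 cKO cells, or 1.36 and 1.31 under library totals on the log2 scale. No single library ended either call. Between genotypes it differed by -0.53 (SE 0.49) before and -0.72 (SE 0.43) after transplant, neither past the threshold.

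Bak1 encodes the other effector, which sits in the membrane. Its counts were low, with 12 to 52 in WT and 2 to 59 in TCF-1 cKO pre-transplant libraries, and the library with 2 counts lay under the 3 counts taken as the smallest level a library can show. Bak1 was at 1.03, 0.347 and 0.847 TPM in WT and 1.64, 0.232 and 2.55 TPM in TCF-1 cKO pre-transplant libraries. After transplant Bak1 was at 6.38, 7.51 and 1.18 TPM in WT and 0.692, 0.577 and 0.824 TPM in TCF-1 cKO libraries. WT post-transplant replicates 1 and 2 stood well above the other 10 libraries. The post-transplant log2 fold change between genotypes was -3.17 (SE 0.78, edgeR adjusted p = 0.0459), and the rise in WT cells was 4.01 (SE 0.96, adjusted p = 0.0213), a 16.1-fold higher level. That rise was 2.95 under library totals (adjusted p = 0.053) and lay between 3.61 and 4.69 when 1 library was left out. In TCF-1 cKO cells the stage difference was 0.44 (SE 0.92, adjusted p = 0.754), and -0.99 under library totals. Before transplant the genotypes differed by 1.07 (SE 1.21, adjusted p = 0.623). In 3 groups most of its TPM went to a pair of transcripts annotated as targets of nonsense-mediated decay, with means of 33.3% and 66.7% in WT pre-transplant, 45.5% and 46.8% in WT post-transplant and 42.2% and 57.8% in TCF-1 cKO post-transplant cells. In the TCF-1 cKO pre-transplant libraries a coding transcript held 45.2%, 0% and 100%, at the low counts given above.

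Bcl2l11 encodes BIM, the BH3-only protein best known for removing T cells after a response. Its pre-transplant level was 7.15, 10.3 and 10.7 TPM in WT and 10.8, 7.56 and 5.21 TPM in TCF-1 cKO libraries. At day 7 it was 5.33, 9.26 and 3.90 TPM in WT and 2.03, 1.11 and 1.41 TPM in TCF-1 cKO libraries. In TPM the genotypes overlapped before transplant and did not at day 7, while in normalised CPM they overlapped at neither stage. The day 7 log2 fold change was -2.33 (SE 0.54, edgeR adjusted p = 0.0448), a 5.03-fold lower level. It lay between -2.72 and -2.03 when 1 library was left out. Before transplant the difference was -0.70 (SE 0.48, adjusted p = 0.424). The stage differences of Bcl2l11 were 0.37 (SE 0.55) in WT and -0.48 (SE 0.48) in TCF-1 cKO cells, neither past the threshold. Under library totals they were -0.66 and -2.12, and the second then passed (adjusted p = 0.006).

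The ratio of Bcl2 to Bcl2l11, the opposing pair named above, was 4.06, 3.48 and 2.49 in TPM in WT and 2.91, 2.99 and 4.26 in TCF-1 cKO pre-transplant libraries. At day 7 it was 0.658, 0.103 and 0.958 in WT and 1.17, 3.00 and 2.07 in TCF-1 cKO libraries. In TPM Bcl2l11 exceeded Bcl2 in all 3 WT post-transplant libraries and in none of the other 9. The margin was narrow in WT replicate 3 (3.90 against 3.74 TPM), and in normalised CPM Bcl2 was the higher there (32.8 against 32.2). The gene totals include non-coding transcripts. One of these held 8.74% of the TPM of Bcl2l11 in WT replicate 3 and 39.5% in TCF-1 cKO replicate 2 at day 7. The ratios of the genotypes did not overlap at day 7 and overlapped before transplant.

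Bid encodes a BH3-only protein that links death receptors to mitochondria after caspase cleavage. It was at 67.8, 55.1 and 62.0 TPM in WT and 28.3, 27.2 and 52.8 TPM in TCF-1 cKO pre-transplant libraries, without overlap. Its log2 fold change before transplant was -0.99 (SE 0.45, edgeR adjusted p = 0.278). At day 7 it was at 24.0, 10.96 and 27.6 TPM in WT and at 11.3, 22.04 and 7.18 TPM in TCF-1 cKO libraries, with overlap and a log2 fold change of -0.80 (SE 0.54, adjusted p = 0.360). Its TPM was lower at day 7 in every library of both genotypes, but on TMM-scaled counts the stage differences were -0.40 in WT and 0.41 in TCF-1 cKO cells, and -1.07 in the latter under library totals.

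Bad encodes a BH3-only protein that growth factor signalling keeps phosphorylated and inactive. It was at 29.9, 28.3 and 42.4 TPM in WT and 6.18, 13.7 and 34.8 TPM in TCF-1 cKO pre-transplant libraries. By day 7 Bad was at 88.4, 126 and 63.8 TPM in WT and 20.8, 70.0 and 21.9 TPM in TCF-1 cKO libraries. WT stages did not overlap, and the TCF-1 cKO stages overlapped through pre-transplant replicate 3. Bad rose by 2.59 (SE 0.56, edgeR adjusted p = 0.0145) in WT and by 2.84 (SE 0.75, adjusted p = 0.0198) in TCF-1 cKO cells on the log2 scale, and by limma on log2(TPM + 1) the second missed the threshold (1.08, adjusted p = 0.178). Under library totals the rises were 1.56 and 1.43 (adjusted p-values of 0.053 and 0.077), and leaving out 1 library moved them between 2.32 and 3.08 in WT and between 2.17 and 4.13 in TCF-1 cKO cells, the last without pre-transplant replicate 3. Between genotypes it differed by -1.28 (SE 0.65, adjusted p = 0.314) before transplant and by -1.65 (SE 0.66, adjusted p = 0.148) at day 7.

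Bbc3 encodes PUMA and Pmaip1 encodes NOXA, both BH3-only proteins induced by p53. Bbc3 was at 6.06, 5.42 and 0.501 TPM in the WT post-transplant libraries and at 1.25, 0.590 and 1.11 TPM in TCF-1 cKO. WT replicate 3, with 9 counts, lay below all the TCF-1 cKO libraries, and the log2 fold change of -2.75 (SE 1.15, edgeR adjusted p = 0.161) became -3.34 (adjusted p = 0.0305) without it. Before transplant, Bbc3 was at 3.40, 4.20 and 6.65 TPM in WT and 2.31, 3.15 and 2.05 TPM in TCF-1 cKO libraries, a log2 fold change of -1.57 (SE 0.97, adjusted p = 0.386).

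Pmaip1 went the other way at day 7, at 3.99, 0.329 and 5.55 TPM in WT and 11.5, 9.13 and 8.92 TPM in TCF-1 cKO libraries. The genotypes did not overlap, and the log2 fold change was 1.52 (SE 0.80, edgeR adjusted p = 0.252), which passed only by limma on log2(TPM + 1) (1.62, adjusted p = 0.084). The lowest WT library, replicate 2, held 23 counts against 352 and 342 in the others. Pmaip1 was at 10.5, 6.56 and 4.22 TPM in WT and 4.23, 7.21 and 6.00 TPM in TCF-1 cKO pre-transplant libraries. Its rise between stages was 2.66 (SE 0.42, adjusted p = 0.0016) in TCF-1 cKO cells on the log2 scale, the smallest adjusted p of the members, against -0.03 (SE 0.87, adjusted p = 0.985) in WT cells. Under library totals the rise was 1.09 (adjusted p = 0.055), and by limma on log2(TPM + 1) it was 0.69 and missed the threshold (adjusted p = 0.143). Before transplant the genotypes differed by -0.50 (SE 0.60, adjusted p = 0.645).

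GC content moved with the post-transplant genotype difference. Over all genes tested, Spearman's rho between log2 fold change and GC content was -0.551, and of 10 equal bins of genes by GC content the lowest had a median of 0.67 and the highest one of -2.45. Of the called members Bak1 (57.6% GC) and Bcl2l1 (54.1%) were GC-rich beside a median of 49.7%, and Bcl2l11 (50.6%) lay near it. Pmaip1 (41.6%) and Bcl2 (45.3%), neither of them called, lay below. With an offset that removed each library's trend on GC content and length, rho was -0.025, and 829 of 16026 genes were called. Bcl2l11 remained called (log2 fold change -2.40, edgeR adjusted p = 0.091), Bcl2l1 fell just short (-1.86, adjusted p = 0.101), and Bak1 lost its call (-1.11, adjusted p = 0.239). Bax and Bad changed sign to 0.63 and 0.32, and Bbc3 went from -2.75 to -0.43. The same offset left the stage calls of Bcl2, Bax and Bad past the threshold in both genotypes, with Bcl2 at -1.41 and -1.13, Bax at 1.33 and 2.43 and Bad at 1.78 and 3.18.

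**Figure D4:**
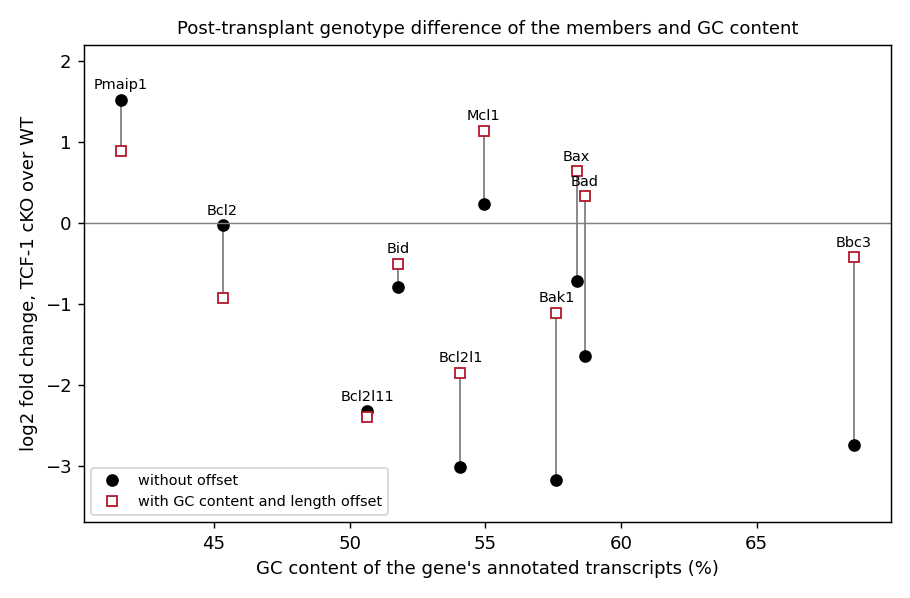
Log2 fold change of TCF-1 cKO over WT post-transplant (y axis) against the GC content of the gene's annotated transcripts (x axis, %) for the 10 members, with filled points without and open squares with the GC content and length offset, 3 libraries a group. Bcl2l11 keeps its value (-2.33 and -2.40), whereas Bax and Bad cross 0 and Bak1 moves from -3.17 to -1.11.

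The balance of the family was taken in each library as the log2 of the summed TPM of the 3 survival genes over that of the 7 effector and BH3-only genes, as a description. It was -2.12, -1.81 and -1.74 in WT and -1.58, -1.37 and -2.66 in TCF-1 cKO pre-transplant libraries. At day 7 it was -4.22, -3.81 and -4.95 in WT and -4.35, -5.18 and -4.29 in TCF-1 cKO libraries. All post-transplant libraries lay below all pre-transplant ones, by 2.44 in the mean for WT and 2.74 for TCF-1 cKO cells, with pooled SDs of 0.43 and 0.60. The genotypes overlapped at both stages, with differences of 0.02 (pooled SD 0.51) before and -0.28 (pooled SD 0.54) after transplant. The latter was 0.36 with the members weighted alike on log2(TPM + 0.1) and -1.04 without Mcl1, so its direction and size depended on how the members were weighed. A single gene weighed heavily, since Bax held 55.1% to 84.3% of the TPM of the death genes, and without Bax, an alternative chosen after seeing the data, the stage differences were -1.67 and -1.87. With the members weighted alike on log2(TPM + 1) they were -1.82 and -1.43. B cell markers moved with the stages, and their part in the balance was not tested.

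**Figure D5:**
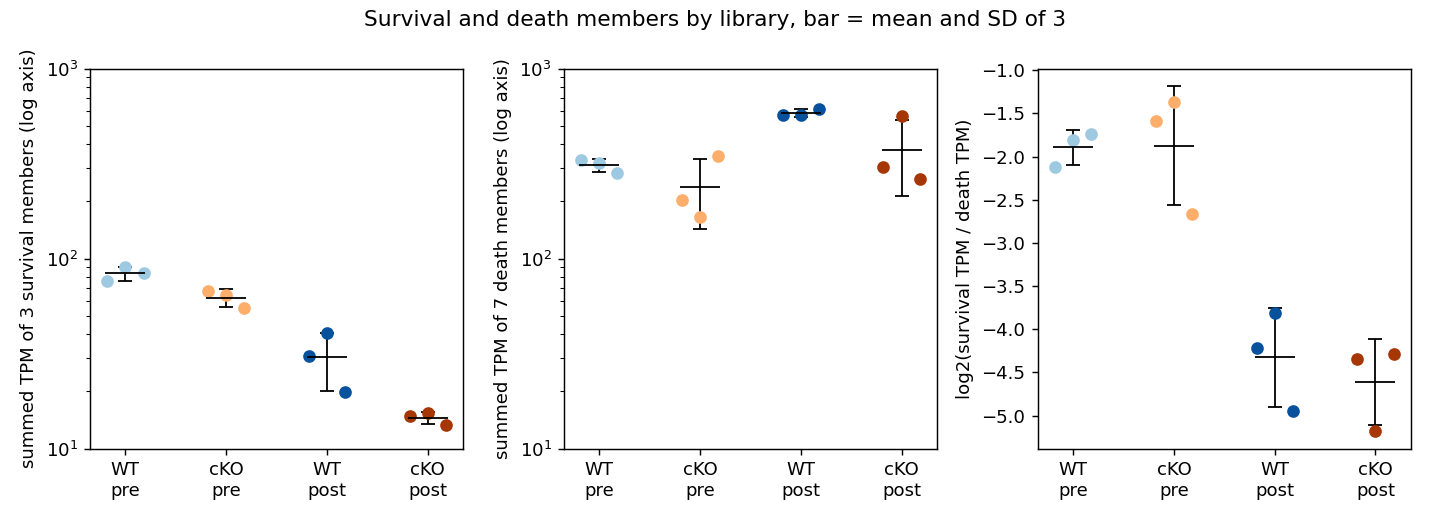
Summed TPM of the 3 survival genes (left, log axis), of the 7 death genes (middle, log axis) and the log2 of their ratio (right) in each library, with the mean and SD of 3 libraries. The ratio lies between -2.66 and -1.37 pre-transplant and between -5.18 and -3.81 post-transplant, and the genotypes overlap at both stages.

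The survival sum at day 7 was 30.7, 40.5 and 19.9 TPM in WT and 14.9, 15.4 and 13.3 TPM in TCF-1 cKO libraries, without overlap. The death sum was 571, 569 and 615 TPM in WT and 303, 561 and 262 TPM in TCF-1 cKO libraries, again without overlap. Both sums were lower in TCF-1 cKO cells, and the ratios overlapped. Of the survival genes only Bcl2l1 had a lower mean in TCF-1 cKO cells (3.46 against 21.4 TPM). Bcl2 (2.88 against 2.73 TPM) and Mcl1 (8.21 against 6.28 TPM) had slightly higher means there. Most of the death sum was Bax, which was not called between genotypes (edgeR adjusted p = 0.304) and was at 0.63 with the GC content and length offset. The death sums came close, at 561 TPM in TCF-1 cKO and 569 TPM in WT replicate 2. TCF-1 cKO post-transplant replicate 2, the library with a CD4 label, had the highest death sum and the lowest balance of its group, and without it the genotype difference in balance was 0.0046.

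The other genes of the pathway were described from 3 lists. Of 15 further BCL-2 family genes 13 were tested at day 7 between genotypes, and 2 were lower, Bcl2l12 (log2 fold change -3.22, edgeR adjusted p = 0.050) and Bcl2l13 (-1.99, adjusted p = 0.081), a mitophagy receptor. Of all genes 17.9% were called in this comparison. The list's median was 0.47, against 0.15 over all genes. With the GC content and length offset none of the list was called, where 829 of 16026 genes were. Of 15 genes of the mitochondrial death pathway 2 were lower, Casp9 (-3.00, adjusted p = 0.081), the caspase that cytochrome c and APAF1 activate, and Endog (-2.21, adjusted p = 0.050), a mitochondrial nuclease, with a median of 0.22 and no call under the offset. Before transplant none of the 3 lists had a call.

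Of 14 regulators of the members, 6 were lower in TCF-1 cKO cells at day 7 and none was higher, where 17.9% of all genes were called in either direction, and their median was -0.55. They included Trp53 (log2 fold change -3.90, edgeR adjusted p = 0.045), the p53 gene that induces Bbc3 and Pmaip1, and Stat5b (-3.44, adjusted p = 0.045), which carries the interleukin signals that sustain Bcl2. Myc (-3.01, adjusted p = 0.045), a driver of cell growth, Runx3 (-2.50, adjusted p = 0.047) and E2f1 (-2.39, adjusted p = 0.089) were the other genes of smallest p. Under the offset 2 of the 14 were called, Trp53 (-2.63, adjusted p = 0.091) and Stat5b (-1.92, adjusted p = 0.093). Over all genes the offset left 829 of 16026 called.

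Between stages the further BCL-2 family genes gave 2 higher and 1 lower call in WT and 3 higher and 2 lower in TCF-1 cKO cells, of 13 tested in each. Among all genes 20.0% and 36.5% were called in these comparisons. The genes named from here to the end of this paragraph were chosen after their values were seen. Bcl2a1b and Bcl2a1d, copies of the A1 survival gene, rose in both genotypes, by 2.51 and 2.27 in WT and by 5.97 and 5.92 in TCF-1 cKO cells on the log2 scale, while the copy Bcl2a1a fell by 3.48 in WT cells. The A1 copies are nearly identical in sequence, so the assignment of reads among them is uncertain. The BH3-only genes Bmf (-2.81) and Hrk (-2.89) fell in TCF-1 cKO cells. In the mitochondrial list Cycs, which encodes cytochrome c, rose by 2.85 in WT and 4.26 in TCF-1 cKO cells. Birc5, a mitotic member of the inhibitor of apoptosis family, rose by 4.18 and 4.63. Each was past the edgeR threshold and also higher in mean CPM of the library total. That list had 5 higher and 1 lower call in WT and 7 higher and 1 lower in TCF-1 cKO cells, of 15 tested, beside the same shares of all genes. Bnip3l and Diablo, called higher in TCF-1 cKO cells, were at -0.07 and -0.53 as plain log2 ratios of mean CPM of the library total.

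Across the 12 libraries, the genes most like Bcl2 by Pearson's r of log2 normalised CPM were Macf1 (0.977), Arhgap24 (0.964) and Swap70 (0.963), and those most like Bax were Lamtor4 (0.996), Smdt1 (0.993) and Mrpl12 (0.993). The 12 points share their stage, depth and marker differences, so these values describe the libraries only.

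Transcript shares, as estimated by pseudoalignment, are given as a description. The main coding transcript held a mean of 94.5% to 100% of the TPM of Mcl1 per group, 84.0% to 95.2% of that of Bid and 85.7% to 100% of that of Pmaip1. Single libraries strayed from these means, with 58.6% for Pmaip1 in TCF-1 cKO pre-transplant replicate 1 and 68.9% for Bid in WT pre-transplant replicate 2. For Bax it held 59.9% in WT and 61.5% in TCF-1 cKO pre-transplant cells and 78.5% and 84.7% at day 7. The rest of the TPM of Bax differed between genotypes before transplant. A retained-intron transcript held 1.95%, 7.15% and 1.66% in the WT and 31.4%, 30.6% and 10.2% in the TCF-1 cKO libraries. A further coding transcript held means of 27.0% and 11.2%, also without overlap. For Bbc3 a retained-intron transcript held 50.3% and 65.7% of the TPM in WT cells before and after transplant, against 3.36% and 39.1% in TCF-1 cKO cells. The mean of 3.36% came from 0%, 0% and 10.1%, in libraries with 8, 14 and 16 counts of the gene, against 86, 85 and 175 counts in WT. The mean of 39.1% came from 61.8%, 0% and 55.4%, and the library at 0% held 3 counts of the gene. The mean of 65.7% included 91.5% in the library with 9 counts. The 2 coding transcripts of Bcl2 shared its TPM, with the second at 48.7% to 61.8% per group.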

How the data were processed

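Total RNA from 12 sorted samples, in 4 groups of 3, was made into SMART-Seq HT and Nextera XT libraries and sequenced in pairs. Per the submitters' processing notes the authors used kallisto 0.46.2, limma and the build mm9. The deposited values are estimated counts and TPM per Ensembl transcript. Transcripts were summed to genes with GENCODE M21 (GRCm38), which may differ from the authors' annotation. Of 117497 transcripts 116374 had a gene. Estimated counts were rounded and tested with edgeR 4.0.16 (TMM, filterByExpr, quasi-likelihood, Benjamini-Hochberg, FDR 0.1) in R 4.3.3, separately for each comparison of 6 libraries, with an interaction over 12. SE was the log2 fold change over the root of F. Comparing 3 with 3 libraries cannot go below p = 0.1 in an exact permutation test. Totals of 4520270 to 32657005 put 3 counts at 0.0919 to 0.664 CPM. Counts were also taken with DESeq2 1.42.0, limma 3.58.1, other scalings and filters, a GC content and length offset, a replicate block and each library left out. Code was tested on simulated data. The members and gene lists were chosen with earlier results of these data known. Named were the members, list genes past FDR 0.1 between genotypes (at most 5 per list and comparison, by smallest p), the 3 genes most like Bcl2 and Bax, Tcf7 and markers of CD8 T, CD4 T, B, myeloid, erythroid and NK cells. The values of 1 gene of the lists are not reported here.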

Additional observations from a re-analysis of the deposited data

How the results depend on the processing

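Over the log2 fold changes of the members, 469 of the values under another processing kept their direction and side of the threshold, 19 passed it newly, 9 lost it and 42 changed sign. When 1 library was left out these numbers were 314, 11, 17 and 18. Causes of the changes were not tested. The limits of depth fell on Bak1 and Bbc3, with as few as 2 and 3 counts in a library.

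At day 7 between genotypes, 5 members were called by the Wald test of DESeq2, 5 by limma on log2(TPM + 1), 5 with no filter, 1 with the GC content and length offset and 0 with that offset and a replicate block, against 3, and 0 to 5 when 1 library was left out. Leave-one-out counts were 0 to 4 before transplant, 3 to 6 for WT stages, 4 to 5 for TCF-1 cKO stages and 0 to 2 for the interaction. Over all genes these fits called 0 to 2739, 1579 to 4156, 5242 to 7114 and 0 to 2093, and 0 to 5299 at day 7. Between 16667 and 24001 genes were tested in them. Library totals gave 7 member calls for TCF-1 cKO stages, among 12268 of 18535 genes called. DESeq2 gave 1 for the interaction, among 1371 of 21526 genes called. Genome-wide, day 7 calls went from 2868 of 16026 genes to 829 with the offset, 2 with the offset and block, and 4534 by DESeq2. They were 3365 of 11597 by limma on log2(TPM + 1) and 3267 of 31267 with no filter.

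Replicate numbers did not pair the samples, since correlations of same-numbered deviations lay between -0.106 and 0.115. With a replicate block the members called were 0 before transplant, 3 at day 7, 5 for WT stages, 4 for TCF-1 cKO stages and 0 for the interaction. Over all genes the block called 0 of 18757, 2038 of 16026, 3097 of 16790, 5478 of 18535 and 0 of 21526, in that order. At day 7 the 3 members were Bcl2l1, Bcl2l11 and Bad, while Bak1 lost its call (-2.78, edgeR adjusted p = 0.117). Mcl1 was added in WT stages (-1.43, adjusted p = 0.094). The offset with the block ended the WT stage call of Bax (1.22, adjusted p = 0.143).

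For the balance, the day 7 genotype difference was 0.36 weighted alike with log2(TPM + 0.1) and -1.04 without Mcl1. The WT stage difference was -1.82 with log2(TPM + 1), -1.97 without Mcl1, -1.60 with the offset and -1.67 without Bax. For TCF-1 cKO stages it was -1.43 with log2(TPM + 1), -1.45 with log2(TPM + 0.1), -1.99 with the offset and -1.87 without Bax. Leave-one-out ranges were -0.23 to 0.41 before transplant, -0.59 to 0.0046 at day 7, -2.69 to -2.12 for WT and -3.13 to -2.45 for TCF-1 cKO stages.

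Signs changed in genotype differences as follows. Bcl2 was at 0.019 with library totals before transplant. At day 7 Bcl2 was at 0.085 with limma-voom, 0.15 with limma on TPM, 0.30 with library totals, 0.036 with the CPM filter, 0.082 with the replicate block and 0.20 in 1 fit over 12 libraries. With the offset, and the offset with the block, Bax was at 0.63 and 0.73 and Bad at 0.32 and 0.13.

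In WT stages, with limma on TPM and library totals, Bcl2l11 was at -0.59 and -0.66 and Bbc3 at -0.45 and -0.035. Bbc3 was at -1.68 with the offset and -2.001 with the offset and block. Pmaip1 was at 0.11 by DESeq2, 0.11 with its size factors, 0.064 with no filter, 0.38 with the offset, 0.085 with the offset and block and 0.22 in 1 fit over 12 libraries.

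In TCF-1 cKO stages, with limma on TPM and library totals, Bcl2l1 was at -0.60 and -0.66, Mcl1 at -1.69 and -1.48, Bid at -1.42 and -1.07 and Bbc3 at -0.83 and -0.93, and Bak1 was at -0.99 with library totals. Bbc3 was at -1.86 with the offset and -2.19 with the offset and block.

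In the interaction Bax was at -0.33 with limma on TPM and -0.047 with library totals. Bad was at 0.28 with limma-voom, 0.14 with the block, 1.28 with the offset and 1.38 with the offset and block, and Bbc3 at 0.14 and 0.074 with the last pair. Leaving out 1 library also changed signs for Bcl2 (-0.40 to 0.12) and Mcl1 (-0.060 to 0.34) at day 7, Bid (-0.54 to 0.079) and Pmaip1 (-0.56 to 0.74) in WT stages, Bak1 (-0.0038 to 1.60) in TCF-1 cKO stages, and Bax (-0.38 to 0.94), Bad (-0.69 to 1.07) and Bbc3 (-1.32 to 0.049) in the interaction.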
